A study of Homo sapiens with 4 samples.

Results

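Argonaute binding regions that overlapped each other on opposite strands of the genome were described in HEK293, a human embryonic kidney cell line. They were chosen from a list of 211947 regions as those on chromosomes 1 to 22 and X that shared at least 1 nt with a region of the other strand. The rule found 647 regions among 211635 on these chromosomes (0.306%, Wilson 95% interval 0.283 to 0.330), of which 325 were plus-strand and 322 minus-strand regions. They formed 346 overlapping pairs. "Nuclear" refers here to the chromosome that encodes the RNA and not to a place in the cell. The overlap itself is the rule by which the regions were chosen, so it is given as a description and not as a result.

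The list came from 4 PAR-CLIP libraries, a method that crosslinks RNA to a chosen protein through a photoreactive uridine analogue and sequences what the protein holds. The AGO1 libraries, 3 in number, were made by precipitating with an antibody against FLAG from HEK293 cells that carried a stable His/FLAG/HA-tagged construct and had received 200 µM 4-thiouridine. The AGO2 library, 1 in number, was precipitated with the antibody 11A9 against AGO2 itself from HEK293 cells that had received 100 µM. All cells were labelled for 16 h and crosslinked at 365 nm. The series description speaks of tagged cells for both proteins, while the labels of the AGO2 library name no tag. The file holds 1 score per region for the pooled libraries, so AGO1 and AGO2 could not be compared, no value has a replicate error, the depth of each library is unknown, and both strands of a pair need not come from the same library or the same cells.

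Argonaute proteins carry a microRNA and are led by it to messenger RNAs, most often within their 3′ untranslated regions. AGO1 and AGO2 both take part in this, and AGO2 can also cut a well-matched target. RNA from both strands of a locus is common where neighbouring genes converge and their 3′ ends run into each other (tail to tail), where promoters fire in both directions (head to head), and where an antisense transcript lies within another gene. The genes at the positions below were not analysed here, because no annotation or sequence of hg19, the build of the list, was used; positions are hg19, counted from 1.

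The median overlap was 18 nt (interquartile range 9 to 25.75, longest 63 nt), and the median share of the shorter region that was covered was 65.1%. At least 50% of the shorter region was covered in 218 of the 346 pairs. At least 20 nt were shared in 162 of the 346 pairs, and at least 50 nt in 6. The overlap joined the 3′ ends of both regions in 147 pairs (42.5%, Wilson 95% interval 37.4 to 47.7) and the 5′ ends in 117 (33.8%, 29.0 to 39.0). In the other 82 pairs (23.7%, 19.5 to 28.5) a region lay within the span of its partner. Most regions had a single partner, 43 had 2 and 1 had 3, so pairs are not independent of each other. At the edge of the rule, the 28 pairs that shared 1 to 3 nt had a median higher score of 4 and a median lower score of 2, and the 21 pairs of regions that were 0 to 2 nt apart, just outside it, had the same medians. Regions of opposite strands were about as frequent on either side of this edge, with 98 pairs sharing 1 to 10 nt, and 11 abutting pairs and 71 pairs 1 to 10 nt apart.

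Pairs were grouped into 225 loci by joining those at most 10000 nt apart. A single pair made up 158 of the loci. The feature that most loci had in common, and that the rule did not use, was the place of the other regions around them. The analysis plan listed other regions near a pair on each strand but did not name their order. Other regions, meaning regions that overlapped nothing on the opposite strand, gathered below the locus where they were plus-strand regions and above it where they were minus-strand regions. Within 10000 nt, 2004 of the 2642 other plus-strand regions that lay outside the loci were at lower positions (75.9%), and 2068 of the 2771 other minus-strand regions were at higher positions (74.6%). Since RNA on the plus strand runs toward higher positions and RNA on the minus strand toward lower ones, this is the order in which 3′ ends face each other.

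**Figure D1:**
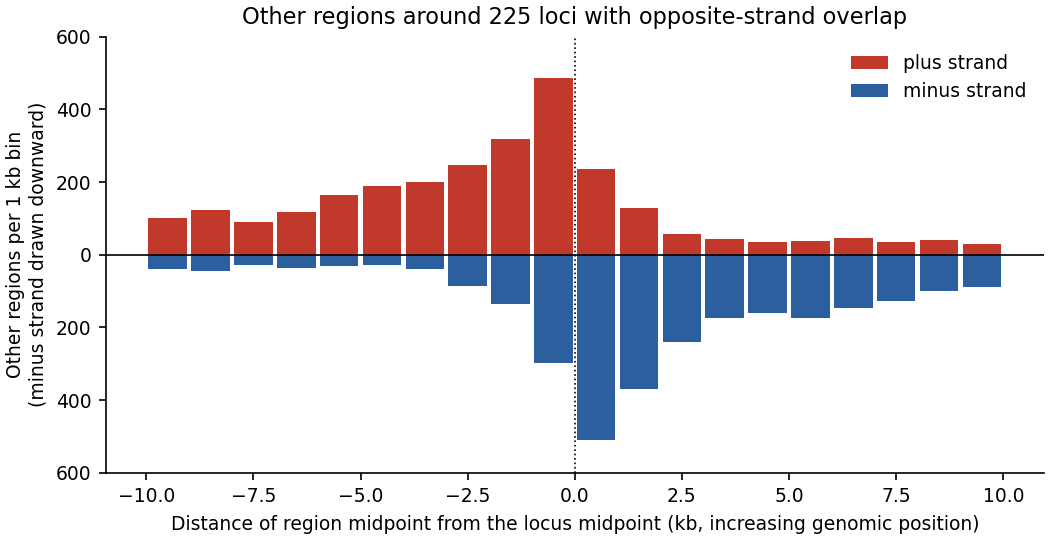
Number of other regions in 1 kb bins around the midpoints of the 225 loci, plus strand drawn upward and minus strand downward; the horizontal axis is the distance in kb. The plus-strand counts are highest just below the midpoint (486 regions) and fall to 56 in the bin from 2 to 3 kb above it, and the minus-strand counts mirror them, with 509 just above the midpoint and 86 in the bin from 2 to 3 kb below it.

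Counted by locus, so that a dense array does not outweigh the rest, the same order prevailed. Of 151 loci with at least 3 other regions on each strand within 10000 nt, 137 had their minus-strand regions centred above their plus-strand regions (90.7%, Wilson 95% interval 85.0 to 94.4). Over the 151 loci, the minus-strand centre lay a median of 4236 nt above the plus-strand centre, with the opposite order counted as negative. In 35 of the 151 loci the strands were separated completely, every plus-strand midpoint lying below every minus-strand midpoint, and in 1 they were separated completely in the opposite order. All 57 loci with at least 10 other regions on each strand had the converging order, while with a minimum of 1 it was 158 of 189 (83.6%, 77.7 to 88.2). The order compares mean positions alone. A locus can count as converging although more of its plus-strand regions lie above it than below. Such loci included those on chromosome 12 (from 120898324) and chromosome 19 (from 44611089), both described later, and they were not the only ones. On chromosome 2 (153504702 to 153504782) all 7 other plus-strand regions lay above the locus, as did all 23 minus-strand regions. At a locus on chromosome 16 (30007274 to 30007339), also counted as converging, all 8 other minus-strand regions lay below. How many loci were of these kinds was not counted.

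The order of the neighbours was also counted by which ends of the regions touched. With at least 3 other regions on each strand, it was converging at 41 of 43 loci whose pairs all met at their 3′ ends, at 27 of 29 whose pairs all met at their 5′ ends, and at 24 of 27 whose pairs were all nested. With at least 1, these counts were 48 of 55 (87.3%), 31 of 41 (75.6%) and 28 of 34 (82.4%). The converging order was thus the more frequent in each of these classes, and differences between the classes were not tested. A comparison was made with 484 loci without an overlap, where regions of opposite strands came within 200 nt of each other. There, 201 of 240 loci with at least 3 other regions on each strand had the converging order (83.8%, 78.6 to 87.9), and 60 of 64 with at least 10. The intervals of both kinds of loci overlap, and their difference was not tested.

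The 5 loci with the most other regions on their poorer strand are described next; this choice was made after the values were seen. On chromosome 1 (38268736 to 38268843), 25 of 29 other plus-strand regions lay below the overlap and 28 of 29 minus-strand regions above it. At the overlap itself a minus-strand region of 108 nt with a score of 67 faced a plus-strand region of 55 nt with a score of 3. On chromosome 2 (204299094 to 204299130), all 35 other plus-strand regions lay below and 21 of 23 minus-strand regions above. The locus on chromosome 3 (160153530 to 160154114) had 4 pairs, with all 32 other plus-strand regions below and 18 of 22 minus-strand regions above. The locus on chromosome 6 from 170103964 to 170105746 had 15 of 29 other plus-strand regions below and 2 above, the rest lying within its span, and all 29 minus-strand regions above. On chromosome 12 (120898324 to 120899424) the order was less clear, with 8 of 22 other plus-strand regions below and 10 above, and all 21 minus-strand regions above.

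The order was opposite at 14 of the 151 loci, where the plus-strand regions were centred above the minus-strand regions. The largest distance between centres was 11568 nt, on chromosome 5 (179233498 to 179233577), with 6 of 7 other plus-strand regions above the locus and 5 of 6 minus-strand regions below. On chromosome 6 (27115220 to 27115250) all 10 other minus-strand regions, with a median score of 11.5, lay below, and the 8 plus-strand regions were divided, 5 below and 3 above. Neighbouring loci on chromosome 7, from 27184200 to 27194145 and from 27209102 to 27213955, both had this order, by 5090 and 4085 nt. They were unequal in their strands, with 71 and 52 other regions on the minus strand against 8 and 4 on the opposite strand. A further locus of the 14, on chromosome 19 (44738977 to 44740885), had 93 other plus-strand regions, 70 of them above, and 3 minus-strand regions, all below. The poorer strand had a median of 6.5 other regions at the 14 loci and 8 at the 137.

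Scores were mostly unequal within a pair. The score is the authors' whole number from 1 to 1000 per region, and what it counts is not stated. The median higher score was 5 and the median lower score 2, and the median ratio of both was 2 (interquartile range 1.5 to 5). In 93 pairs the scores differed at least 5-fold, in 22 at least 20-fold, and in 67 they were equal. The higher score was on the minus strand in 154 pairs (44.5%, 39.4 to 49.8) and on the plus strand in 125 (36.1%, 31.2 to 41.3). Across the 346 pairs plus-strand and minus-strand scores had a Spearman's rho of -0.017, given as a description, since some pairs share a region and both scores come from the same pooled libraries. In 71.4% of the pairs the lower score was 1 or 2. Taken singly, 47.9% of the 647 regions had a score of 1 or 2, against 49.4% of all regions on these chromosomes. The lower of 2 scores is 1 or 2 more often than a single score is, so the share over pairs cannot be set against those over single regions.

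**Figure D2:**
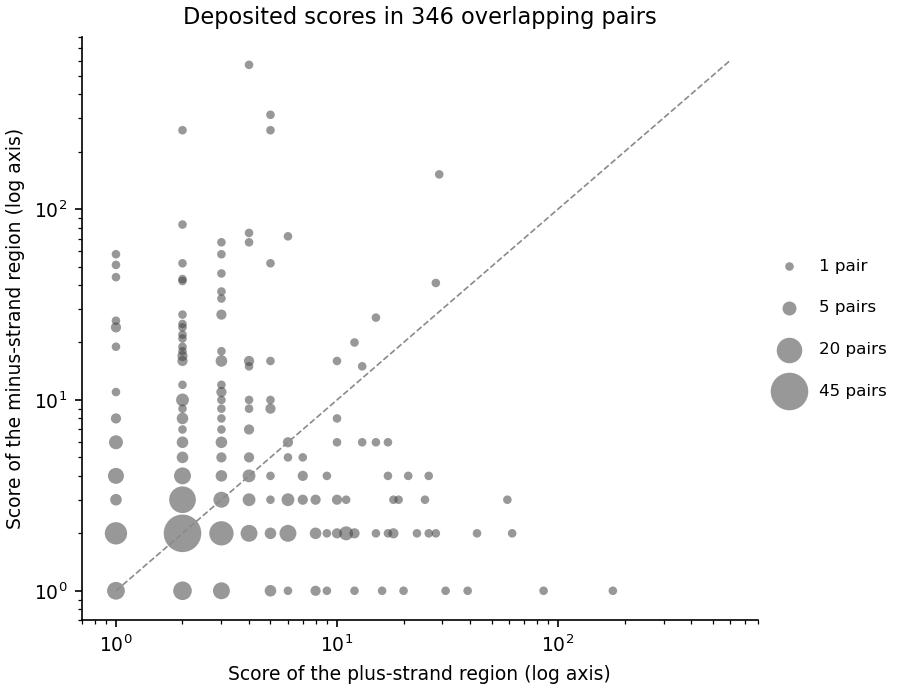
Deposited score of the plus-strand region (horizontal, log axis) against that of the minus-strand region (vertical, log axis) for the 346 pairs, with the area of a point rising with the number of pairs at that position and a dashed line where both are equal. The points spread along both axes, and 2 of the pairs have both scores at 20 or above.

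Few pairs had high scores on both strands at once. Both scores reached 10 in 6 of the 346 pairs and 20 in 2. High scores were also few among single regions, with 45 of the 647 (6.96%) and 4.05% of all regions on these chromosomes at 20 or above. Whether high scores met less often than such shares would give was not tested. The pair with the highest lower score lay on chromosome 11, where a plus-strand region of 42 nt (64084172 to 64084213) with a score of 29 shared 38 nt with a minus-strand region of 63 nt (64084176 to 64084238) with a score of 152. Next came a pair on chromosome 12, which also had the longest overlap of all, 63 nt: a plus-strand region of 65 nt (57910375 to 57910439, score 28) lay almost wholly opposite a minus-strand region of 162 nt (57910377 to 57910538, score 41). All 6 and all 10 of their other minus-strand regions lay above them, whereas other plus-strand regions lay on both sides, 2 below and 2 above the former and 23 below and 7 above the latter. Among the 5 longest overlaps was also 1 of 52 nt on chromosome 5, where a minus-strand region of 98 nt (137523489 to 137523586, score 16) held a plus-strand region (137523508 to 137523559, score 3), and all 32 other plus-strand regions lay below that locus. On chromosome 6 a minus-strand region (57054097 to 57054165, score 15) and a plus-strand region (57054165 to 57054198, score 13) met in 1 nt, and a further minus-strand region (57054188 to 57054228, score 6) overlapped the far side of the latter.

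Among these pairs of high score on both strands, 2 lay side by side on chromosome 17. In the first, a plus-strand region of 28 nt (79099685 to 79099712, score 15) covered all of a minus-strand region of 25 nt (79099686 to 79099710, score 27). In the second, 6 nt further on, a plus-strand region of 30 nt (79099719 to 79099748, score 12) shared 28 nt with a minus-strand region of 45 nt (79099721 to 79099765, score 20). Both strands thus showed the same shape, a couple of narrow regions within 81 nt, with the minus-strand scores the higher in each. A search made after these values were seen, for neighbouring pairs at most 50 nt apart with regions of at most 50 nt and no region in common, found 5 such couples of pairs. The other couples had lower scores, at most 6 for plus-strand and 17 for minus-strand regions.

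The remaining pairs of the 10 with the highest lower score had lower scores of 6 to 10. The last 3 of them were among 7 pairs with a lower score of 6, of which those with the higher partner score were taken. On chromosome 6 (170103964 to 170104037, plus strand, score 10, and 170104015 to 170104087, minus strand, score 16) the regions shared 23 nt at their 3′ ends. Those on chromosome 3 (51435280 to 51435332, plus strand, score 10, and 51435285 to 51435398, minus strand, score 8) shared 48 nt, with all 23 other plus-strand regions below and all 5 minus-strand regions above. Here both scores were close to each other. On chromosome 4 a minus-strand region of 255 nt (122737940 to 122738194, score 72), the widest of all 647, held a plus-strand region of 51 nt (122738024 to 122738074, score 6). On chromosome 2 a plus-strand region of 64 nt (64118571 to 64118634, score 17) held a minus-strand region of 23 nt (64118576 to 64118598, score 6). The pair on chromosome 11 (111953583 to 111953647, plus strand, score 15, and 111953633 to 111953680, minus strand, score 6) shared 15 nt.

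In 19 pairs a region had a score of at least 50, and its partner had a median score of 3, which is also the median of all regions on these chromosomes. Regions of high score thus mostly faced regions of ordinary score. Apart from the pair on chromosome 11 with scores of 29 and 152, no partner in these 19 pairs exceeded 6. The strong region was on the minus strand in 15 of the 19 pairs. These pairs held 16 different strong regions, so some were counted more than once. All of those counted more than once were minus-strand regions, which raises the count for that strand. The strands of such regions over the whole list were not compared. The highest score of any of the 647 regions, 570, belonged to a minus-strand region of 68 nt on chromosome 7 (99691398 to 99691465), which covered all of a plus-strand region of 62 nt (99691401 to 99691462) with a score of 4. Both edges of these regions were at most 3 nt apart, although their scores differed 142.5-fold.

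The largest ratio, 177, was found on chromosome 9, where a plus-strand region of 61 nt (127454759 to 127454819, score 177) faced a minus-strand region of 39 nt (127454758 to 127454796) with a score of 1. Few other regions lay within 10000 nt of it, 2 plus-strand regions with a median score of 47 and 1 minus-strand region. On chromosome 2 a minus-strand region of 183 nt (68406166 to 68406348, score 259) held plus-strand regions of 31 nt (68406189 to 68406219, score 2) and 46 nt (68406253 to 68406298, score 5). That locus was in the converging order without exception, with 13 of 13 other plus-strand regions below and 25 of 25 minus-strand regions above. A plus-strand region of 166 nt on chromosome 8 (37555726 to 37555891, score 86) held a minus-strand region of 46 nt with a score of 1. On chromosome 7 a minus-strand region of 68 nt (27209102 to 27209169, score 312) shared 22 nt with a plus-strand region of 34 nt (27209148 to 27209181, score 5). Nesting followed the scores: the enclosed region had the lower score in 60 of the 82 nested pairs (73.2%, 62.7 to 81.6), an equal score in 10 and the higher score in 12, with medians of 2 for enclosed and 8.5 for enclosing regions. In 2 of these pairs both spans were the same, and the plus-strand region was counted as enclosed. A wider region tends to have a higher score throughout the list, and the part of width in this was not tested.

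Several loci held repeated overlaps. The locus with the most pairs, 10 within 1371 nt on chromosome 19 (44611089 to 44612459), had 9 plus-strand and 8 minus-strand regions. Its plus-strand scores ran from 1 to 6 (median 3) and its minus-strand scores from 1 to 58 (median 7.5). Unlike most loci, it had other regions on both sides of either strand, 8 plus-strand regions below and 18 above, and 9 minus-strand regions below and 5 above. Both strands were therefore covered over a wider stretch than the overlaps alone. The minus-strand regions were centred 665 nt above the plus-strand regions, so this locus was counted as converging. Yet on each strand the larger number of regions outside it lay on the side opposite to that order.

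On chromosome 7 (99016496 to 99017262), 6 pairs lay within 767 nt, with plus-strand scores of at most 2 and minus-strand scores from 2 to 17. A locus on chromosome 6 (160199763 to 160200617) had 5 pairs and an uneven neighbourhood of 2 other plus-strand and 25 minus-strand regions, with minus-strand scores of 10, 16, 16 and 4 against plus-strand scores from 2 to 5. Another on that chromosome (170103964 to 170105746) had 5 pairs and the same number of other regions, 29, on each strand. There a single minus-strand region of 73 nt (170104015 to 170104087, score 16) overlapped 3 plus-strand regions with scores of 10, 4 and 4. The locus on chromosome 7 that begins at 27209102 spread its 5 pairs over 4854 nt, with minus-strand scores of 312, 5, 24 and 17 and plus-strand scores from 1 to 7. In 4 of these 5 loci the summed score of the overlapping regions was higher on the minus strand, the exception being that on chromosome 6 from 170103964, where it was 27 for plus-strand and 20 for minus-strand regions.

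**Figure D3:**
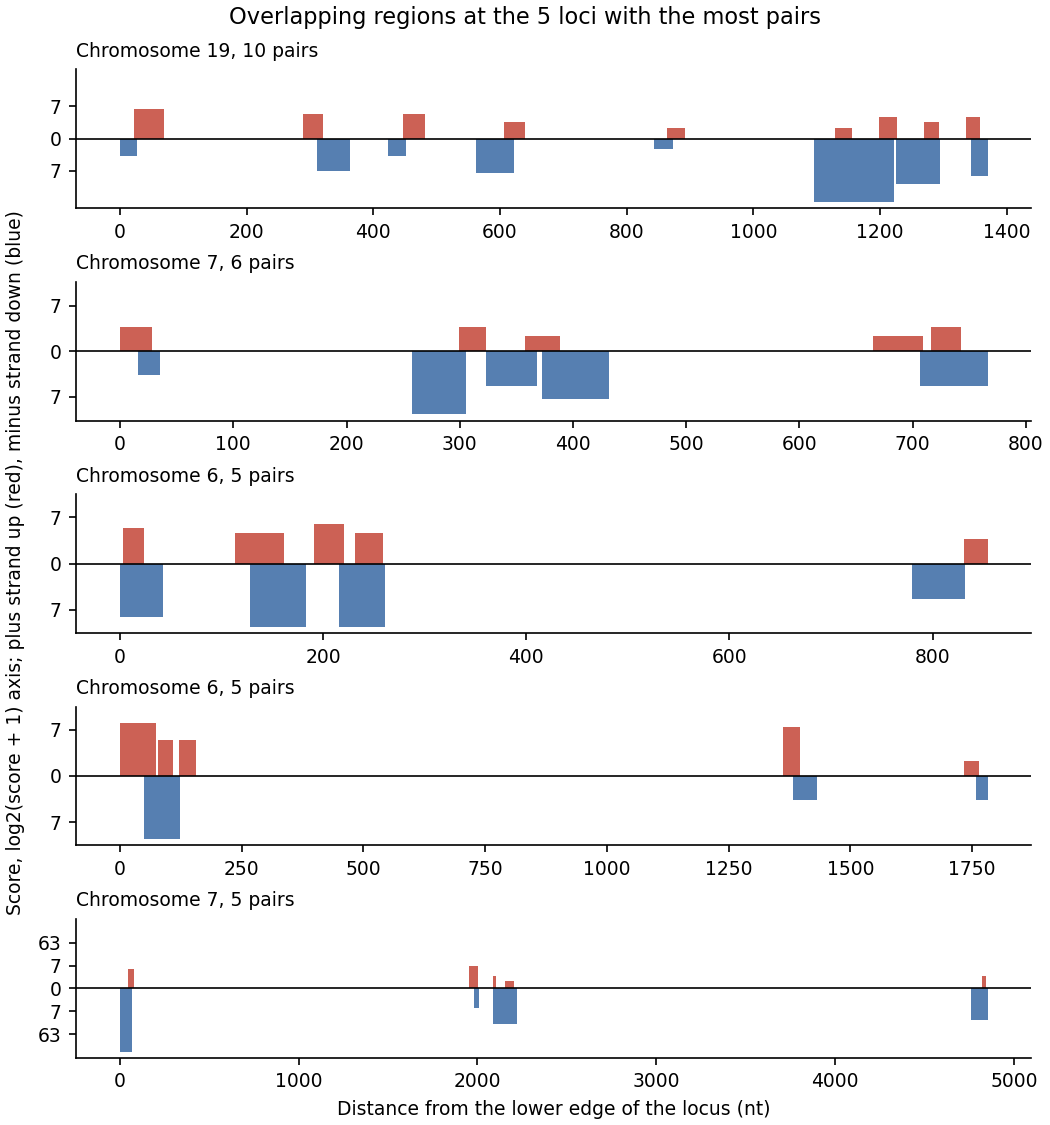
Overlapping regions to scale at the 5 loci with the most pairs, by distance in nt from the lower edge of each locus; bar width is region width and bar height is log2(score + 1), upward for the plus strand and downward for the minus strand. At the chromosome 19 locus overlaps recur along 1371 nt, whereas at the last locus, on chromosome 7, a minus-strand region with a score of 312 stands well apart from the other overlaps.

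Both regions of a pair had further regions nearby in most cases. Another region that was itself not in an overlap lay within 10000 nt on both strands for 307 of the 346 pairs (88.7%, 85.0 to 91.6), on 1 strand for 29 and on neither for 10. Within 1000 nt it was both strands for 194 (56.1%, 50.8 to 61.2). In the 29 pairs with company on 1 strand within 10000 nt, the region without company had a median score of 2, a highest score of 10 and a median width of 27 nt, and its partner had a median score of 3. Of the 647 regions, 226 (34.9%, 31.4 to 38.7) stood in a run of at least 10 regions on their own strand with gaps of at most 1000 nt, against 40.4% of all regions on these chromosomes. A neighbour on their own strand within 100 nt was present for 50.5% (46.7 to 54.4), against 53.4%. Alone in their run were 123 of the 647 (interval of the share 16.2 to 22.2%), against 22.8%. The list-wide share lay outside the interval for long runs and for regions alone in their run and inside it for near neighbours, and these differences were not tested. In 35 pairs both regions stood in such a run, in 167 pairs 1 did, and in 144 neither.

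The 1-nt position that the list marks inside each region, which the rule did not use, never coincided between both strands of a pair. The distance between both positions was 0 nt in none of the 346 pairs, where a count of 0 allows a share of up to 0.867%. It was 1 nt in 11 pairs and 2 nt in 15. From 10 nt on one side to 10 nt on the other, leaving out 0, there was a mean of 5.2 pairs per offset (range 0 to 11), and 1 of these other offsets was without a pair as well: no plus-strand position lay 3 nt above its minus-strand partner, while 4 lay 3 nt below. None of the 101 mitochondrial pairs had a distance of 0 either. PAR-CLIP marks crosslinked uridines by their conversion in the sequence, and a base pair offers a uridine to RNA of 1 strand alone. Whether the marked positions are such conversions is not stated in the sources used here, and no base was read. Both marked positions lay within the overlap in 120 pairs (34.7%, 29.9 to 39.8), and neither did in 103 (29.8%, 25.2 to 34.8), so that in the latter the shared stretch held neither marked position.

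**Figure D4:**
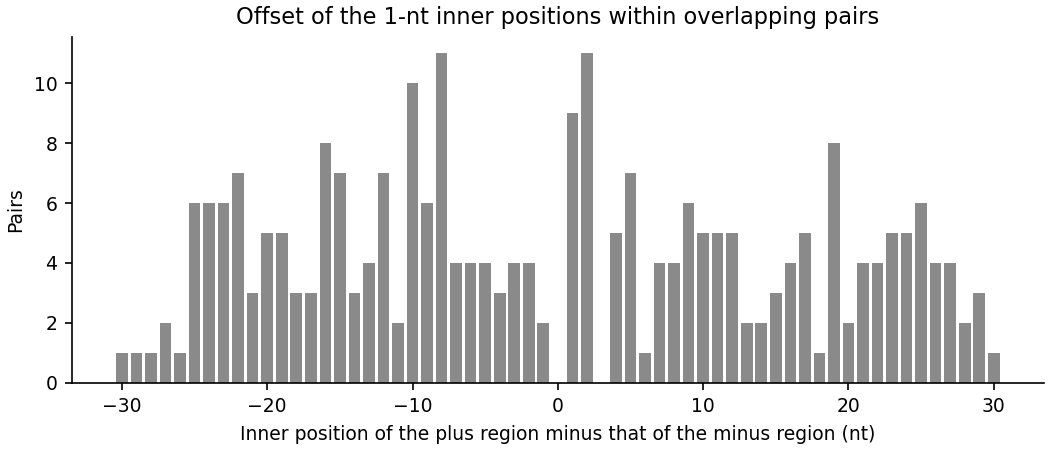
Number of pairs (vertical) by the marked position of the plus-strand region minus that of the minus-strand region, in nt (horizontal), from -30 to 30. The bar at 0 is empty, while offsets of 1 and 2 nt hold 9 and 11 pairs.

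The scores and widths of the 647 regions were set beside those of all 211635 regions on these chromosomes. The medians were close, a score of 3 for both and a width of 34 nt against 32 nt. Score 1 was held by 85 of the 647 (13.1%), against 14.1% of all. A score of at least 20 was held by 45 (6.96%, 5.24 to 9.18), against 4.05% of all. A score of at least 50 was held by 16 (2.47%, 1.53 to 3.98), against 0.917% of all, and a width of at least 100 nt by 23 (3.55%, 2.38 to 5.28), against 1.79%. Read the other way, 0.824% of the regions that reached a score of 50 were in an overlap (0.508 to 1.33), against 0.301% of the others (0.278 to 0.325). The share was higher at scores of at least 20 than below in each of 3 classes of width. These classes began at 26 nt and left out the narrower regions, 9209 of 15 to 20 nt and 44768 of 21 to 25 nt. Among regions of 76 nt or wider, the share in an overlap was 0.475% at scores of at least 20 (0.300 to 0.749) and 0.388% below (0.259 to 0.582), among those of 41 to 75 nt it was 0.587% (0.371 to 0.925) and 0.354% (0.305 to 0.412), and among those of 26 to 40 nt it was 0.398% (0.182 to 0.865) and 0.280% (0.248 to 0.315). The intervals overlapped in each class, and the parts of width and score in these shares were not tested.

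Chromosomes 17 and 19 had the highest shares of regions in an overlap, 0.568% (66 of 11612, Wilson 95% interval 0.447 to 0.722) and 0.535% (74 of 13837, 0.426 to 0.671). Together they held 21.6% of the 647 regions and 12.0% of all regions on these chromosomes. Chromosome 7 followed with 0.437% (0.324 to 0.588). The lowest shares were 0.0793% on chromosome 21 (2 of 2523, 0.0217 to 0.289) and 0.110% on chromosome 20 (6 of 5430, 0.0507 to 0.241). Neighbours in this order mostly had overlapping intervals, chromosomes 17, 19 and 7 among them. Without chromosomes 17 and 19 the share over the rest was 0.272% (0.250 to 0.297). The intervals cover counting error only, and regions of a pair or a locus count together, so they are too narrow. On chromosome 7 the 43 regions lay in 9 loci, on chromosome 17 the 66 in 20 and on chromosome 19 the 74 in 18.

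**Figure D5:**
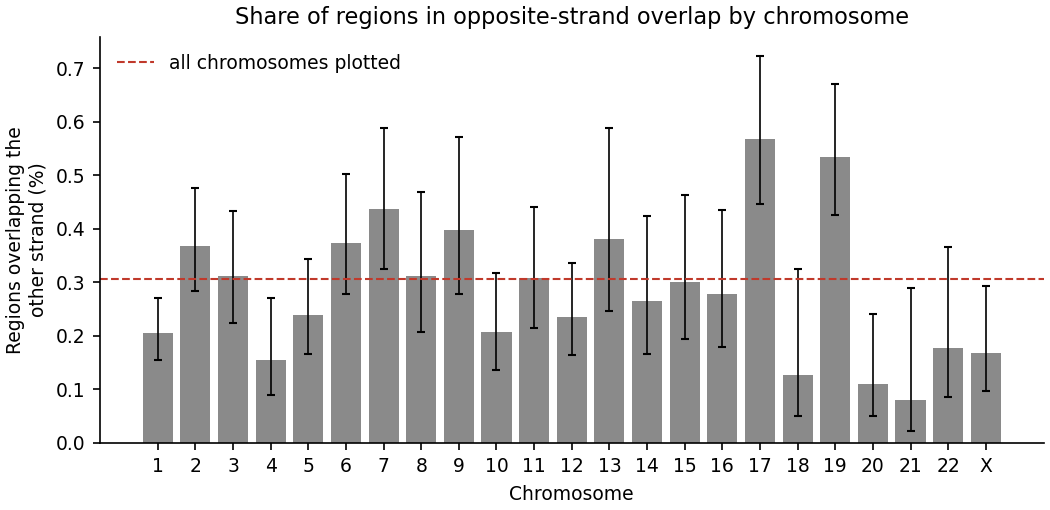
Percentage of the regions of each chromosome that overlap a region of the other strand (bars, with Wilson 95% intervals), and the share over all chromosomes plotted, 0.306% (dashed line). Chromosomes 17 and 19 stand highest, and they and chromosome 7 have intervals that lie wholly above the line.

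No overlap of opposite strands was found among the 124 regions on chromosome Y and on contigs outside the assembled chromosomes, where fewer regions could meet. On the mitochondrial chromosome, which is transcribed along both strands, 156 of 188 regions were in an overlap, as 101 pairs.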

How the data were processed

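PAR-CLIP libraries of AGO1 (3) and AGO2 (1) were deposited as 1 pooled list. The deposited score of each region is a whole number assigned by the authors, from 1 to a ceiling of 1000, and its meaning is not stated there or in the labels. BWA 0.5.8c and hg19 were used per the submitters' processing notes, and per the file headers the list passed a filter whose name includes 0.05. For the region caller and the choice of pooled libraries nothing was given in the sources used here.

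Regions were paired by any overlap of at least 1 nt. Loci joined pairs at most 10000 nt apart, and neighbours of a locus exclude all 647 overlapping regions. Regions were named by a rule: the 10 pairs with the highest lower score, the 5 longest overlaps, the 5 largest ratios with a higher score of at least 20, and the 5 loci with the most pairs; those chosen after seeing values are marked. Wilson 95% intervals cover counting error only; regions are not replicates, and no test was run. The pairing step was tested on 6995 simulated regions, where 999 of 999 pairs were recovered. The members and lists were chosen with earlier results of these data known. The software was matplotlib 3.10.9, scipy 1.17.1, pandas 2.3.3, numpy 2.4.6 and Python 3.11.15. Alternatives changed the minimum overlap, score minimum, distance and loci used.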

Additional observations from a re-analysis of the deposited data

How the results depend on the processing

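For 7 results, 17 alternatives were computed, 13 planned and 4 chosen after seeing the data, and 12 stayed within the 95% interval of the value or, for a count, within 1.5 times. The 4 chosen after seeing the data all concerned the converging order. The number of regions in an overlap (647) was 426 when at least 50% of the shorter region had to be shared, a stricter criterion, and 187 when scores of 1 and 2 were left out, which leaves fewer regions to pair. The share of pairs with another region near on both strands (56.1% within 1000 nt) was 88.7% within 10000 nt, by the wider window. The share of loci in the converging order (90.7%) was 83.6% with at least 1 other region on each strand and 100% with at least 10. No paired analysis was possible because the list holds no column per library, and no library could be left out for the same reason. The unknown depth of each library limits what can be said of a region missing on either strand.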
